A study of Mus musculus with 9 samples.

Results

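Oxidative phosphorylation runs through 5 protein complexes of the inner mitochondrial membrane, and its subunits were followed here in mouse intestinal stem cells grown in 3 matrices. Genes were taken by symbol, as GENCODE M21 pairs it with the deposited gene identifiers: the Nduf A, B, C, S and V series, the Sdh subunits, the Uqcr series, Cox4 to Cox8, the Atp5 series and the mitochondrially encoded Nd, Co, Cytb and Atp genes. Pseudogenes and genes with fewer than 10 counts summed over the 9 libraries were left out: 6 symbols marked -ps, 4 annotated as processed pseudogenes, and 6 nuclear and 5 mitochondrial genes under that minimum. This left 86 of 46517 genes, of which 78 are nuclear and 8 are encoded by the mitochondrial genome. All 78 nuclear members and 7 of the 8 others passed the filter on low counts and were tested. By complex, the nuclear members were 35 of complex I, 4 of complex II, 8 of complex III, 14 of complex IV and 17 of complex V. Ndufa4 was placed with complex IV, where its protein is now known to sit despite its name. The mitochondrial members were mt-Nd1 to mt-Nd6 of complex I, mt-Cytb of complex III and mt-Co1 of complex IV.

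Complexes I and II pass electrons from NADH and succinate to ubiquinone, complex III hands them to cytochrome c, complex IV reduces oxygen, and complex V uses the proton gradient to make ATP. Most subunits come from the nucleus and are imported. The core subunits made inside the organelle come from long transcripts of the mitochondrial genome, so every complex except complex II needs both genomes. In the intestine, crypt base stem cells are known for high mitochondrial activity, while the neighbouring Paneth cells lean on glycolysis.

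Dissociated stem cells formed colonies for 4 days in Matrigel, a basement membrane extract of a mouse tumour, or in gels of polyethylene glycol (PEG), a synthetic polymer. The PEG was either of a non-degradable or of a degradable kind. Each matrix had 3 libraries of polyadenylated RNA, and all 9 shared R-spondin, noggin, EGF, the GSK3 inhibitor CHIR99021 and the histone deacetylase inhibitor valproic acid. The labels name the 3 libraries of a matrix replicates without saying whether cultures or animals differed, so p-values measure the spread between these libraries, which may be technical. They give no genotype, strain or age of the donor mice.

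The libraries held between 38016227 and 47211981 reads assigned to genes. Non-unique alignments, tallied separately, came to 65.2 to 71.8 per 100 assigned reads, and a read may enter that tally more than once. CPM, a gene's reads relative to the scaled size of the library, summed over the 10 intestinal epithelium markers to 5354 to 5560 in Matrigel, 5589 to 6715 in non-degradable PEG and 6080 to 6770 in degradable PEG. Both gels were wholly above Matrigel, with 4 markers higher and 1 lower in the non-degradable gel, and 5 higher in the degradable one. Markers of endothelium (0.185 to 0.316 CPM), blood (1.58 to 3.96 CPM) and mesenchyme (5.48 to 9.61 CPM) were low, with Cdh5, Ptprc, Col3a1, Dcn and Lum at 0 in all libraries. Those of striated muscle and heart were higher and differed by matrix. Their sum was 13.6 to 18.6 CPM in Matrigel, 22.6 to 42.0 CPM in non-degradable PEG and 91.7 to 134 CPM in degradable PEG. Of these 7 markers, 2 were tested, and 1 was called higher in each gel. The blood sum was 1.58 to 2.05 CPM in Matrigel, 2.95 to 3.96 CPM in non-degradable PEG and 1.90 to 2.61 CPM in degradable PEG. Only 1 of the 7 blood markers was tested, and it was called higher in non-degradable PEG. Among epithelial lineages, 4 of 6 Paneth markers fell in each PEG gel and 1 rose in degradable PEG. Their sum was 803 to 1595 CPM in Matrigel, against 309 to 494 CPM in the non-degradable and 361 to 400 CPM in the degradable gel. The 7 enterocyte markers summed to 160 to 247, 133 to 179 and 65.2 to 101 CPM in the same order, so that Matrigel and the non-degradable gel overlapped. Of these 7, 2 rose and 2 fell in non-degradable PEG, while 4 fell and 0 rose in degradable PEG. Over all tested genes, 9.71% were called higher and 7.13% lower in non-degradable PEG, with 7.42% and 4.79% in degradable PEG. The part of epithelial, blood, muscle and lineage markers in the results that follow was not tested. In bulk RNA, fewer cells of a type and less RNA per cell cannot be told apart.

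Of the 13 protein genes of the mitochondrial genome, 7 carried nearly all the counts, and their level was high. Per kb of exon, mt-Co1 averaged 7799 CPM, mt-Nd1 7729 CPM, mt-Cytb 5461 CPM, mt-Nd2 4422 CPM, mt-Nd5 2191 CPM, mt-Nd4 1677 CPM and mt-Nd6 215 CPM over the 9 libraries. By contrast, mt-Co2 held 2 counts and mt-Co3 1 count in all libraries together, and mt-Atp6, mt-Atp8 and mt-Nd4l held 0. These 5 genes, which encode parts of complexes IV, V and I, fell under the count minimum. The 8th member, mt-Nd3, held 29 counts, 0 to 10 in a library, and was too low to be tested.

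Apart from mt-Atp8, the genes with almost no counts were those whose sequence is found nearly whole in another annotated gene. Each mitochondrial transcript was cut into all windows of 75 bases, and a window counted as shared if another annotated gene held it with at most 1 mismatch. The share of such windows was 100% for mt-Co2, 99.9% for mt-Co3, 99.5% for mt-Atp6, 98.9% for mt-Nd3 and 98.7% for mt-Nd4l. It was 61.5% for mt-Nd4 and 58.7% for mt-Co1, and 9.37% or less for mt-Nd5, mt-Nd2, mt-Cytb, mt-Nd6 and mt-Nd1. No shared window was found for mt-Atp8, and sequence outside annotated genes was not searched. A read that aligns to more than 1 place was not assigned to a gene, so counts of a gene with shared windows can understate its level. The 2 pairs below show the start of a gene beside its closest nuclear copy, once for a gene with 2 counts in all and once for the best counted one, from GENCODE M21 on GRCm38. Over 681 aligned bases mt-Co2 and its copy Gm28661 at chr1:24614885-24615565 differed at 0 positions. Over 1545 bases mt-Co1 and Gm13340 at chr2:22588103-22589647 differed at 37, an identity of 97.6%. Bases 1 to 60 of each are printed, and capitals mark mismatches.
mt-Co2: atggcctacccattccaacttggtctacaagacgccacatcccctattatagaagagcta
Gm28661: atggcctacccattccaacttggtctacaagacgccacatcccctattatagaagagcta
mt-Co1: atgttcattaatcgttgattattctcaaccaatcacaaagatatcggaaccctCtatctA
Gm13340: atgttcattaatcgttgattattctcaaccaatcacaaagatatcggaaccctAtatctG

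**Figure D1:**
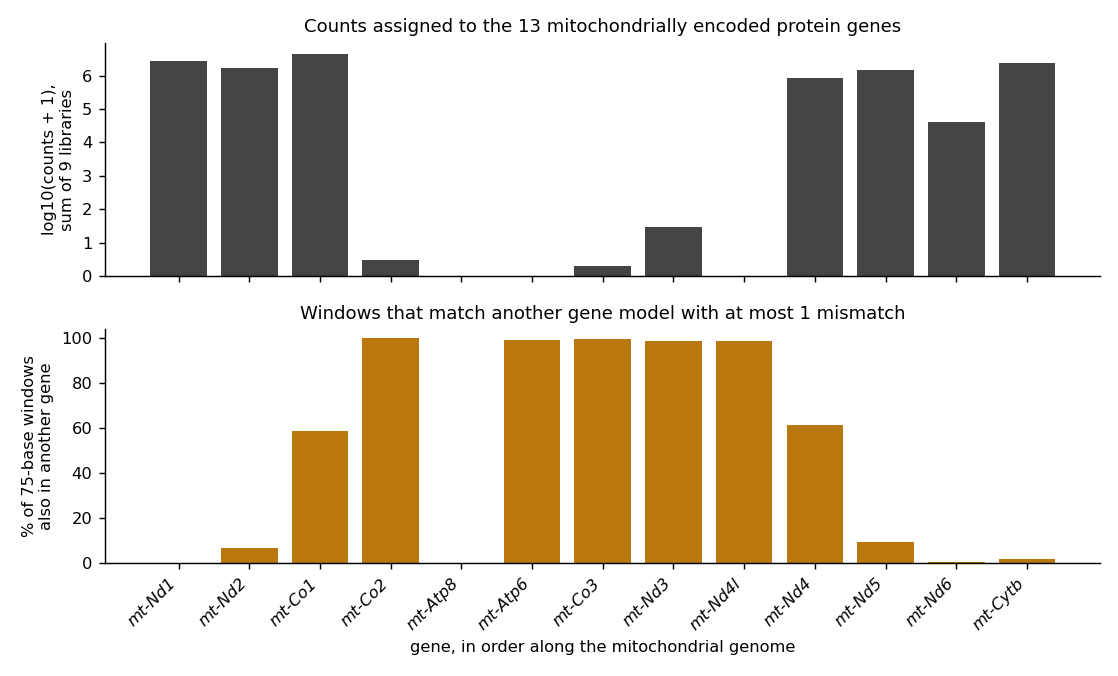
Bars give, for the 13 mitochondrially encoded protein genes in their order along the genome, the log10 of counts plus 1 summed over 9 libraries (top) and the percentage of 75-base windows that another annotated gene holds with at most 1 mismatch (bottom). The genes at 98.7% or more, mt-Co2, mt-Atp6, mt-Co3, mt-Nd3 and mt-Nd4l, held 0 to 29 counts, and mt-Atp8 held 0 counts with no shared window.

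Nuclear members, each taken by its longest protein-coding transcript, shared fewer windows. Of the 78, 45 shared none, 33 shared some, and 10 shared at least 25%, led by Atp5l at 67.4%, Atp5h at 60.9% and Uqcrb at 56.8%. Counts of these 10 are uncertain. The most abundant nuclear members per kb of exon belonged to complex V and complex IV: Atp5b, the catalytic beta subunit of ATP synthase, at 522 CPM, Atp5a1, its alpha subunit, at 504 CPM, and Cox6a1, the liver-type form of a complex IV subunit, at 469 CPM. The lowest per kb was Atp5l at 0.241 CPM. The nuclear members were steady across libraries. The ratio of the highest to the lowest library had a median of 1.24 over the 78 genes, against 1.64 over the 7 tested mitochondrial genes.

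The nuclear members took a slightly smaller part of the reads in the non-degradable gel than in Matrigel, and the mitochondrial members a larger part. In Matrigel the nuclear members held 1.52%, 1.47% and 1.43% of assigned reads in replicates 1, 2 and 3. They held 1.40%, 1.35% and 1.31% in non-degradable PEG and 1.304%, 1.51% and 1.34% in degradable PEG. All 3 non-degradable PEG libraries lay below all Matrigel libraries, whereas replicate 2 of degradable PEG lay among them. The means were 1.47 ± 0.0444%, 1.35 ± 0.0441% and 1.39 ± 0.113% (SD, n = 3 each). The tally of non-unique alignments moved along with these shares. Per 100 assigned reads it came to 71.8, 70.1 and 70.6 in Matrigel. It was 68.8, 67.1 and 66.0 in non-degradable PEG and 65.2, 69.4 and 65.5 in degradable PEG. Its part in the shares was not tested.

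Mitochondrial members held 2.90%, 2.94% and 3.87% of assigned reads in Matrigel, 3.82%, 4.04% and 4.41% in non-degradable PEG and 3.09%, 3.62% and 4.32% in degradable PEG. Replicate 3 was the highest of each matrix, and replicate 3 of Matrigel lay above replicate 1 of non-degradable PEG, so the groups overlapped. The mean share was 3.24 ± 0.547%, 4.09 ± 0.2997% and 3.68 ± 0.616% (SD, n = 3 each). The ratio of mitochondrial to nuclear member reads, which no scaling between libraries can alter, was 1.91, 2.00 and 2.70 in Matrigel, 2.73, 3.00 and 3.36 in non-degradable PEG and 2.37, 2.39 and 3.23 in degradable PEG. Non-degradable PEG lay wholly above Matrigel, but by a gap of only 2.73 against 2.70, and degradable PEG overlapped both. Other forms of the ratio lost this gap, with Matrigel replicate 3 above non-degradable PEG replicate 1 on the log2 scale. The values were 1.98 against 1.97 per kb of exon, and 1.17 against 1.09 without mt-Co1 and Atp5b, the most counted member of each genome. From mean log2 CPM per gene they were 5.23 against 5.18. Within each of the 3 same-numbered pairs of Matrigel and non-degradable PEG, the share and the ratio were both higher in the gel. On the log2 scale the mean difference in the ratio from Matrigel was 0.47 for non-degradable PEG and 0.28 for degradable PEG. The second value rested on single libraries: it was 0.13 without degradable PEG replicate 3, 0.18 without Matrigel replicate 1 and 0.43 without Matrigel replicate 3. As sums over chosen genes, these shares and ratios are given without a test.

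**Figure D2:**
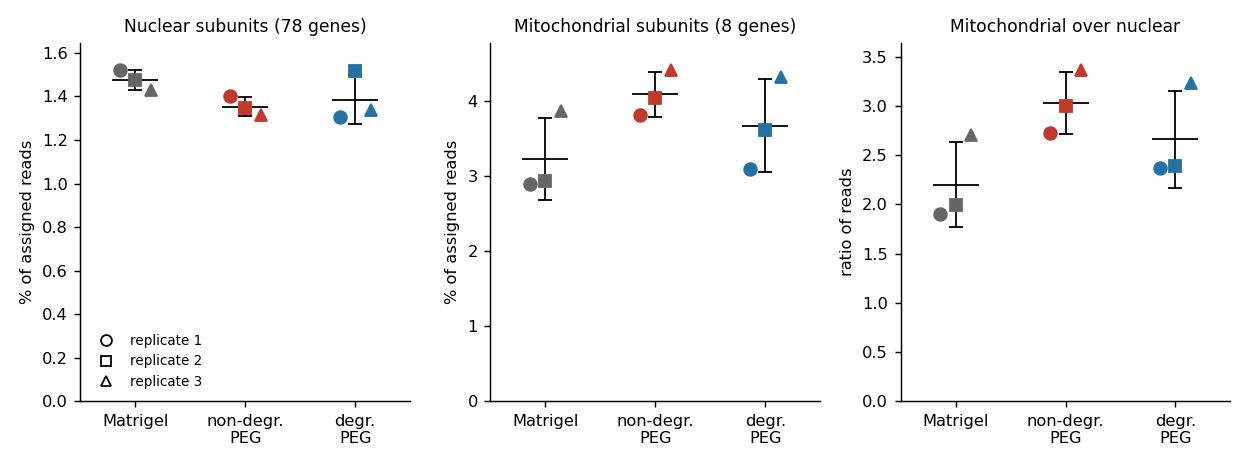
Points are libraries, with the share of assigned reads in percent for the 78 nuclear members (left) and the 8 mitochondrial members (middle) and the ratio of mitochondrial to nuclear reads (right), and bars give the mean and SD of 3 libraries. The nuclear share of non-degradable PEG (1.31% to 1.40%) lies below that of Matrigel (1.43% to 1.52%), and replicate 3 has the highest mitochondrial share of each matrix.

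Among single genes, only mt-Co1 of the mitochondrial members passed the test, in non-degradable PEG against Matrigel. This gene encodes the catalytic core of complex IV, where oxygen is reduced, and lies at chrM:5328-6872 of GRCm38. Other genes share 58.7% of its windows, 39.8% without a mismatch, so its counts are uncertain, as are those of mt-Nd4 at 61.5%. The part of reads with more than 1 alignment in its result was not tested. Its level was 8772, 9061 and 11522 CPM in Matrigel, against 13145, 13749 and 16001 CPM in non-degradable PEG, and 10206, 11743 and 14252 CPM in degradable PEG. All non-degradable PEG libraries were above all Matrigel libraries, and degradable PEG lay between and overlapped both. It rose by a log2 fold change of 0.55 ± 0.14 (SE) in non-degradable PEG (edgeR quasi-likelihood test, Benjamini-Hochberg adjusted p = 0.0201). That is 1 called gene higher and 0 lower of 7 mitochondrial members tested, where 9.71% of all 14870 tested genes were called higher and 7.13% lower. The call was lost without Matrigel replicate 1 (adjusted p = 0.0784), Matrigel replicate 2 (0.0692) or non-degradable PEG replicate 3 (0.0834), all from edgeR. Across 19 alternatives its adjusted p ran from 0.0003 to 0.0834.

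Of the 5 tested complex I members made by this genome, 0 passed in non-degradable PEG (2 at an unadjusted p under 0.05 by edgeR), with 4 above 0 and mt-Nd6 below it. In non-degradable PEG, mt-Nd5, a proton-pumping subunit, had 4362, 4933 and 4923 CPM against 3009, 3032 and 4242 CPM in Matrigel, again with no overlap. Its log2 fold change was 0.47 ± 0.16 (edgeR adjusted p = 0.0735). The values for mt-Nd4, mt-Nd2 and mt-Nd1, which are also subunits of the membrane arm, were 0.38, 0.24 and 0.23, and mt-Cytb, the core of complex III, stood at 0.15 (edgeR adjusted p = 0.126 to 0.462). Of 19 alternatives, 7 called mt-Nd5 higher, among them DESeq2 (adjusted p = 0.0322), and 4 called mt-Nd4 higher. Groups that did not overlap were mt-Co1 and mt-Nd5, 2 of the 7 and both higher in non-degradable PEG, against 21.8% of all tested genes higher and 21.6% lower. The median over the 7 was 0.24, where all tested genes had a median of -0.0021. Its size rested on single libraries: it was 0.14 without non-degradable PEG replicate 3, 0.16 without Matrigel replicate 2 and 0.37 without Matrigel replicate 3. Equal replicate numbers deviated together between these 2 matrices, so the fit with the replicate number as a block belongs beside this result. The pairing was read from these same data, and the labels do not say what a number marks. That fit held all 9 libraries and so blocked degradable PEG too. There the r of same-numbered libraries fell to 0.0712 with Matrigel and 0.0197 with non-degradable PEG. With that block, edgeR called mt-Co1, mt-Nd1, mt-Nd2, mt-Nd4 and mt-Nd5, all higher, at adjusted p-values from 0.0003 to 0.0363. That is 5 of 7, where the blocked fit called 14.1% of all tested genes higher and 12% lower. With the block and only the 2 matrices compared, an alternative chosen after seeing the data, edgeR called the same 5. That fit called 17.6% of all tested genes higher and 17.3% lower.

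In degradable PEG against Matrigel, no mitochondrial member passed (0 of 7, with 1 at an unadjusted p under 0.05 by edgeR and 0 calls by DESeq2), where 7.42% of all tested genes were called higher and 4.79% lower. The largest values were 0.30 ± 0.14 for mt-Co1 (edgeR adjusted p = 0.179) and 0.30 ± 0.16 for mt-Nd4 (0.257). With the replicate block, edgeR called mt-Co1 higher (adjusted p = 0.00919), and without degradable PEG replicate 1 it called mt-Nd4 higher (0.0440). Shares of all tested genes called in those fits are not given. The median was 0.11, against -0.02 over all tested genes, and its sign rested on 1 library: without degradable PEG replicate 3 it was -0.05. It was 0.035 and 0.059 without replicate 1 or 2 of Matrigel, 0.25 without replicate 3 of Matrigel and 0.21 without replicate 1 of degradable PEG. The 7 groups all overlapped, where 15.6% of all tested genes lay wholly higher and 14.8% wholly lower.

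The exception in sign was mt-Nd6, a complex I subunit and the only protein gene on the other strand of the mitochondrial genome, which meets mt-Nd5 at its end. It had 120, 167 and 135 CPM in Matrigel, against 137, 69.4 and 95.2 CPM in non-degradable PEG and 119, 129 and 33.4 CPM in degradable PEG. The libraries spread widely within each PEG gel and the groups overlapped. Its log2 fold change was -0.48 ± 0.39 and -0.58 ± 0.39 in the non-degradable and degradable gel (edgeR adjusted p = 0.430 and 0.382). Counts of mt-Nd6 per 100 counts of mt-Nd5 ran from 0.694 in degradable PEG replicate 3 to 5.50 in Matrigel replicate 2. The sources do not state the strand setting of the counting, so reads from the short overlap of these genes, chrM:13552-13565, are uncertain. The libraries were of polyadenylated RNA, and the part of that selection in the mt-Nd6 counts was not tested.

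**Figure D3:**
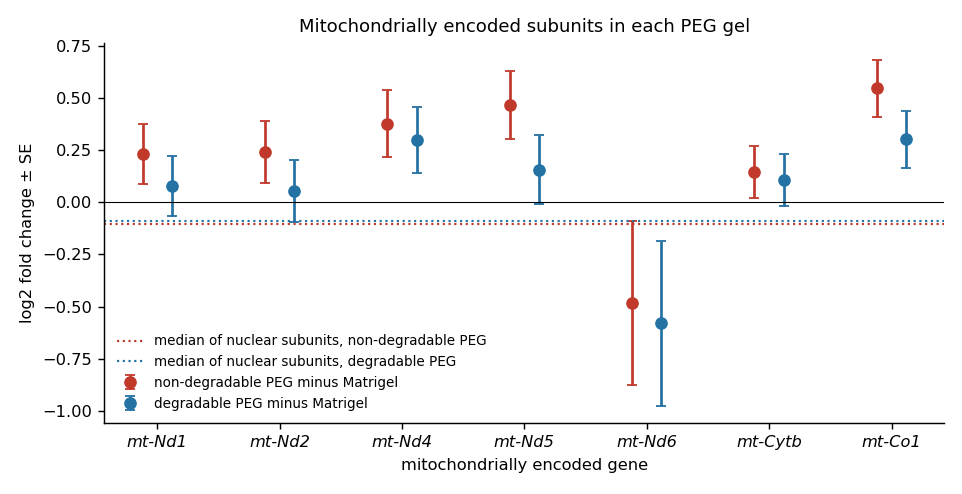
Points give the log2 fold change and its SE against Matrigel for the 7 tested mitochondrial genes, in non-degradable PEG (red) and degradable PEG (blue), and dotted lines give the median of the 78 nuclear members. In both gels 6 of the 7 genes lie above 0 and mt-Nd6 lies below it, while the nuclear medians are -0.11 and -0.09.

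Nuclear members of all 5 complexes had medians below 0 in both PEG gels, and few genes passed the test alone. In non-degradable PEG against Matrigel, 2 rose (Ndufv3 and Cox7a1), 3 fell (Ndufa4, Ndufb11 and Ndufa1) and 73 did not pass. That is a smaller part of the 78 than the 9.71% and 7.13% called over all genes. Yet 66 of 78 had a log2 fold change below 0, or 84.6%, against 50.4% of all tested genes, and 33 lay wholly below Matrigel, or 42.3%, against 21.6%, while 5 lay wholly above, or 6.41%, against 21.8%. The median was -0.11, against -0.0021 over all tested genes. By complex it was -0.11 for complex I, -0.05 for complex II, -0.04 for complex III, -0.09 for complex IV and -0.13 for complex V. These shares describe genes that share 3 Matrigel libraries and carry no test.

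The count of nuclear calls in this comparison depended on the fit and on single libraries. With the replicate block, edgeR called 2 higher and 7 lower, adding Atp5k, Ndufa5, Ndufb2 and Uqcrh, against 14.1% and 12% of all tested genes. With the block and only the 2 matrices compared, an alternative chosen after seeing the data, it called 3 higher and 28 lower, where 17.6% of 14618 tested genes were called higher and 17.3% lower. In the fit without a block, 0 were called without Matrigel replicate 2, 1 without non-degradable PEG replicate 3, 2 without replicate 1 of Matrigel or replicate 1 of non-degradable PEG, 3 without Matrigel replicate 3, 8 without degradable PEG replicate 1 and 14 without degradable PEG replicate 2.

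In degradable PEG against Matrigel, 0 nuclear members rose, 3 fell (Uqcrh, Ndufb11 and Ndufa1) and 75 did not pass by edgeR, with 14 at an unadjusted p under 0.05. That is a smaller part of the 78 than the 7.42% called higher and 4.79% called lower over all tested genes. DESeq2 also called 0 higher, and 4 lower. Values below 0 were found for 67 of 78, or 85.9%, against 53.1% of all tested genes. Wholly below Matrigel lay 18, or 23.1%, against 14.8%, and 0 lay wholly above, against 15.6%. The median was -0.09, against -0.02 over all tested genes, and by complex it ran from -0.13 for complex V to -0.05 for complex III. The overall median was -0.049 without degradable PEG replicate 1 and -0.14 without degradable PEG replicate 2. The calls went to 0 without Matrigel replicate 2 or 3, and to 1 (Ndufa1) without Matrigel replicate 1 or degradable PEG replicate 3. Without degradable PEG replicate 1 the 1 call was Ndufv3, higher, and without degradable PEG replicate 2 there were 11, all lower.

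Between the PEG gels no member was called (0 of 85 tested by edgeR and by DESeq2, with 2 nuclear and 0 mitochondrial genes at an unadjusted p under 0.05), where 0.814% of all genes were called higher and 0.464% lower in non-degradable PEG. The 2 were Cox7a1 at 0.83 and Ndufa6, an accessory subunit of complex I, at 0.21, with edgeR adjusted p = 0.223 and 0.257. The medians were -0.01 for the nuclear and 0.15 for the mitochondrial members. In the test over all 3 matrices, 6 nuclear members (Cox7a1, Ndufa1, Ndufa4, Ndufb11, Ndufv3 and Uqcrh) and 1 mitochondrial member (mt-Co1) passed, against 16.3% of all tested genes.

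**Figure D4:**
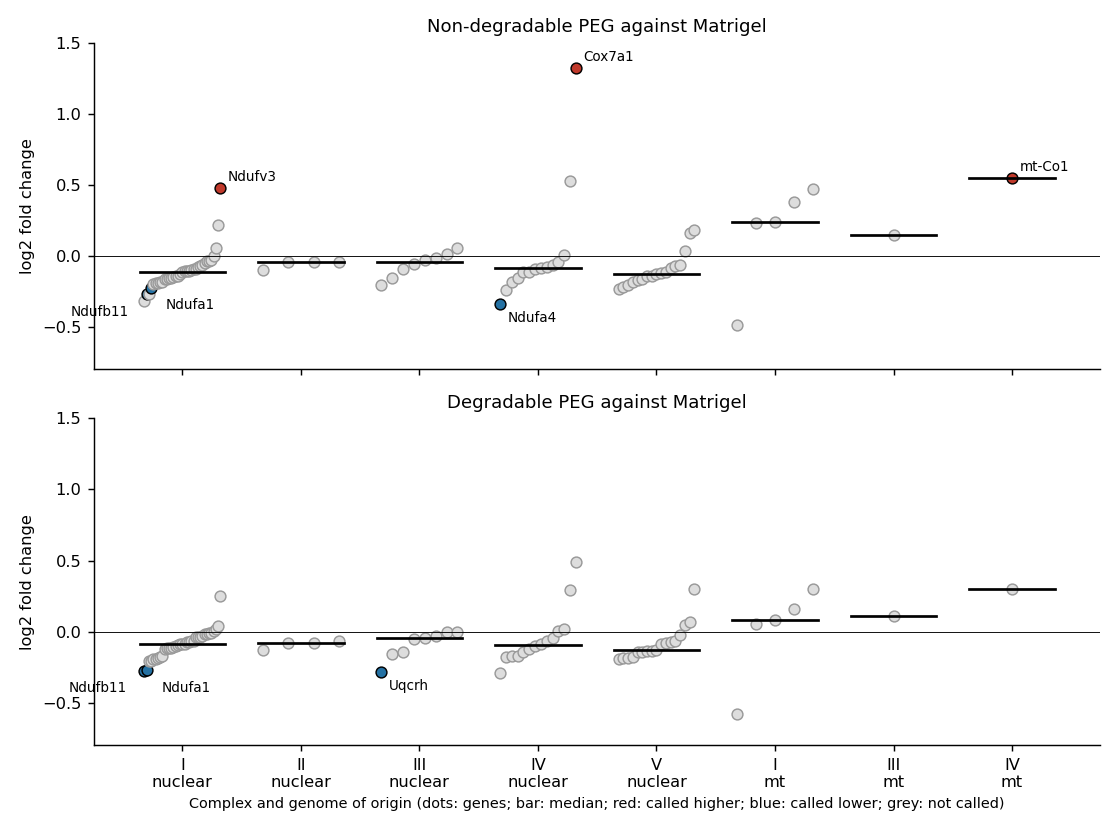
Dots give the log2 fold change of every tested member against Matrigel, by complex and genome, for non-degradable PEG (top) and degradable PEG (bottom), with a bar at each median and red or blue for genes called higher or lower. Nuclear medians lie between -0.13 and -0.04 in all 5 complexes, and the medians of the mitochondrial groups lie above 0.

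In complex I, the members that passed were accessory subunits, which surround the catalytic core. Ndufv3, which sits on the arm that oxidises NADH, is at chr17:31520115-31531331. It had 69.6, 63.9 and 67.5 CPM in Matrigel, against 92.5, 81.6 and 105.5 CPM in non-degradable PEG and 66.4, 84.2 and 88.5 CPM in degradable PEG. Non-degradable PEG was wholly higher, and degradable PEG had 1 library within the Matrigel range. The log2 fold change was 0.48 ± 0.11 in non-degradable PEG (edgeR adjusted p = 0.0172) and 0.25 ± 0.11 in degradable PEG (0.186). The first call was lost without replicate 2 of Matrigel (0.0598) or replicate 3 of non-degradable PEG (0.0762).

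Ndufa1, an X-linked subunit of the membrane arm at chrX:37187588-37191163, fell in both PEG gels. It had 45.8, 49.7 and 47.3 CPM in Matrigel, against 40.6, 41.0 and 40.7 CPM in non-degradable PEG and 37.1, 40.7 and 40.5 CPM in degradable PEG. Every PEG library was below every Matrigel library. It fell by 0.22 ± 0.07 and 0.27 ± 0.07 on the log2 scale (edgeR adjusted p = 0.0412 and 0.0225), and the first of these calls was lost whenever 1 Matrigel or 1 non-degradable PEG library, or degradable PEG replicate 3, was left out. The second was lost without replicate 2 or 3 of Matrigel or replicate 1 of degradable PEG.

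Ndufb11, likewise X-linked and of the membrane arm, lies at chrX:20615326-20617619. It had 121, 113 and 111 CPM in Matrigel, against 97.5, 95.1 and 94.0 CPM in non-degradable PEG and 90.1, 105.3 and 89.9 CPM in degradable PEG, again without overlap. It fell by 0.27 ± 0.07 and 0.28 ± 0.07 (edgeR adjusted p = 0.0306 and 0.0336). The first call was lost when any 1 library of Matrigel or of non-degradable PEG was left out (adjusted p up to 0.107). The second was lost without any 1 Matrigel library, replicate 1 of non-degradable PEG or replicate 1 or 3 of degradable PEG (up to 0.127). Ndufb11 overlaps Rbm10 on the opposite strand and shares 24.7% of its windows with Gm6444, so its counts are uncertain.

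In complex III, Uqcrh, the hinge protein that helps cytochrome c1 meet cytochrome c, lies at chr4:116066965-116075071. It had 275, 290 and 275 CPM in Matrigel, against 246, 240 and 240 CPM in non-degradable PEG and 212, 249 and 230 CPM in degradable PEG. Both gels lay wholly below Matrigel. The log2 fold change was -0.28 ± 0.07 in degradable PEG (edgeR adjusted p = 0.0238), lost without any 1 Matrigel library or degradable PEG replicate 1 or 3, and -0.21 ± 0.07 in non-degradable PEG (0.0623). It overlaps Gm12854 on the opposite strand. Complex II, built from nuclear genes only, had 0 of 4 called in either gel by edgeR, and 0 at an unadjusted p under 0.05: Sdha, Sdhb, Sdhc and Sdhd had log2 fold changes of -0.05, -0.04, -0.10 and -0.05 in non-degradable PEG, next to -0.08, -0.06, -0.13 and -0.08 in degradable PEG.

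In complex IV, Ndufa4 at chr6:11900292-11907497 had 250, 249 and 243 CPM in Matrigel, against 202, 204 and 181 CPM in non-degradable PEG and 202, 248 and 209 CPM in degradable PEG. Non-degradable PEG was wholly lower, and degradable PEG replicate 2 lay within the Matrigel range. It fell by 0.34 ± 0.08 in non-degradable PEG (edgeR adjusted p = 0.0204), a call lost without Matrigel replicate 1 (0.0636), Matrigel replicate 2 (0.0653) or non-degradable PEG replicate 3 (0.0892). In degradable PEG the value was -0.17 ± 0.08 (0.218).

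Several complex IV and V subunits come in isoforms, and the forms known from most tissues carried the reads. Cox4i1 (445 CPM on average), Cox6a1 (329 CPM), Cox6b1 (233 CPM), Cox7a2l (190 CPM), Cox7b (175 CPM), Cox8a (174 CPM), Cox6c (137 CPM) and Cox7a2 (109 CPM) did not pass in either gel, with log2 fold changes from -0.19 to 0.00. The partner forms Cox4i2 and Ndufa4l2 had 2 and 4 counts in all, and Cox6a2, Cox7b2 and Cox8b had 0. Of the 3 genes for the membrane ring subunit of ATP synthase, Atp5g3 averaged 388 CPM, Atp5g1 41.1 CPM and Atp5g2 1.67 CPM, and 0 of 3 passed in either gel. Atp5g3 shared no window with another gene, and Atp5g2 shared 7.95%. Atp5g1 shared 9.57%, taken over a transcript of 4715 bases, with 112 genes, so its level is uncertain. Cox6b2, known from testis, averaged 2.38 CPM with values of 0.52 ± 0.21 and 0.29 ± 0.21 (edgeR adjusted p = 0.108 and 0.411).

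Cox7a1, the heart and muscle form of a small complex IV subunit at chr7:30184144-30186078, had the largest log2 fold change of any member, at a very low level. It held 18, 13 and 15 counts in Matrigel, against 40, 33 and 33 counts in non-degradable PEG and 14, 19 and 25 counts in degradable PEG, or 0.274 to 0.461, 0.756 to 1.06 and 0.368 to 0.646 CPM. Non-degradable PEG lay wholly above both other matrices. It rose by a log2 fold change of 1.32 ± 0.30 in non-degradable PEG (edgeR adjusted p = 0.0125), lost without replicate 2 of Matrigel (0.0548) or replicate 1 of non-degradable PEG (0.0520), and stood at 0.49 ± 0.32 in degradable PEG (0.356). The 7 markers of striated muscle and heart summed to 13.6 to 18.6 CPM in Matrigel, against 22.6 to 42.0 CPM in non-degradable PEG and 91.7 to 134 CPM in degradable PEG. Acta1 made up most of it at a mean of 50.4 CPM, 2 of the 7 passed the expression filter, and Myh6 was at 0. Their part in the Cox7a1 result was not tested.

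**Figure D5:**
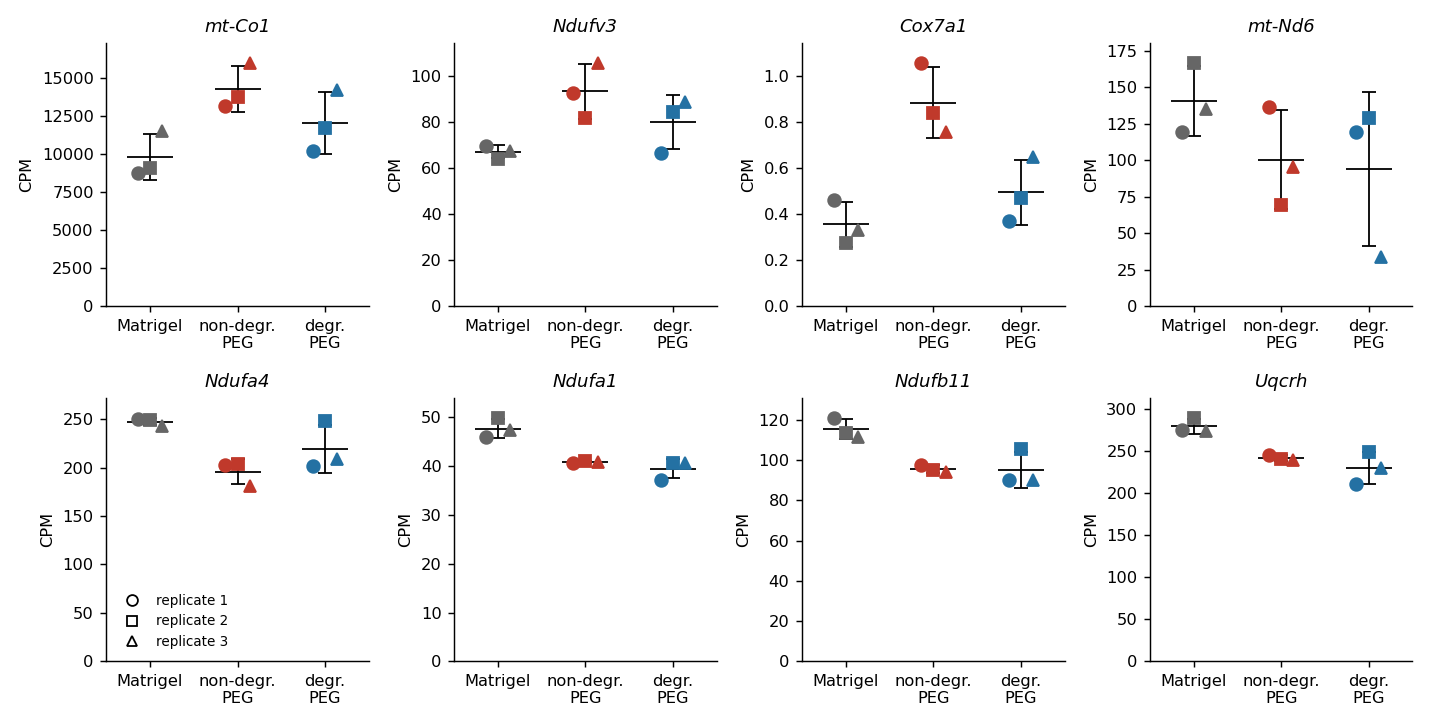
Points give CPM per library for mt-Co1, Ndufv3, Cox7a1, mt-Nd6, Ndufa4, Ndufa1, Ndufb11 and Uqcrh, with bars at the mean and SD of 3 libraries of a matrix. Ndufa1 has 45.8 to 49.7 CPM in Matrigel, whereas the PEG libraries hold 37.1 to 41.0 CPM, and degradable PEG replicate 2 is the highest of its matrix for Ndufa4, Ndufa1, Ndufb11 and Uqcrh.

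Promoters of nuclear respiratory genes are known to hold sites of NRF1, of ETS factors such as GABPA (NRF2) and of YY1. RefSeq windows on GRCm38.p6, from 250 bases before to 50 bases after the start, were at hand for 64 of the 78 nuclear members, as 69 promoters. Searched on both strands, GCATGCGC, an NRF1 core, was present in 14.5% of them and in 2.71% of all 32851 promoters. CCGGAAG, an ETS core, was in 23.2% against 8.86%, and AANATGGC, a YY1 core, in 23.2% against 6.05%. ACGTG, the core of a hypoxia response element, was in 23.2% against 19.6%. Member promoters had a median GC content of 57.3% against 52.7%. A match is a description of the letters only. The promoters of all 6 nuclear members called against Matrigel are printed, with matches in capitals: ACGTG in Ndufv3, at chr17:31519865-31520164 (plus strand), and in Ndufa1, at chrX:37191189-37191488 (minus strand), AAAATGGC in Ndufb11, at chrX:20617570-20617869 (minus strand), and the reverse complement of CCGGAAG in Uqcrh, at chr4:116075021-116075320 (minus strand), and the reverse complement of ACGTG in Cox7a1, at chr7:30183921-30184220 (plus strand). Ndufa4, at chr6:11907401-11907700 (minus strand), held none of the 4 motifs, and none of the 6 windows held GCATGCGC.
Ndufv3 promoter: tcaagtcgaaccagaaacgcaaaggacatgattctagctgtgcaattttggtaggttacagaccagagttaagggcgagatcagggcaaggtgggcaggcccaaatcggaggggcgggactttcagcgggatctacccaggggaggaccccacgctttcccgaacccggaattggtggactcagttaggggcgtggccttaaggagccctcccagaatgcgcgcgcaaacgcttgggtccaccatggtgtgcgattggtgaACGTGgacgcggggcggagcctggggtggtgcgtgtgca
Ndufa1 promoter: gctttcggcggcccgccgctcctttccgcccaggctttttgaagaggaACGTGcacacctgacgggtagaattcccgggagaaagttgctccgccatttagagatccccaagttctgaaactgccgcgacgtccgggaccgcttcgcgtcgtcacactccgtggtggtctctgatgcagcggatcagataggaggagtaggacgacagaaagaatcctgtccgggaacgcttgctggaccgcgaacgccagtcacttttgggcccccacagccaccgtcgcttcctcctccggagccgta
Ndufb11 promoter: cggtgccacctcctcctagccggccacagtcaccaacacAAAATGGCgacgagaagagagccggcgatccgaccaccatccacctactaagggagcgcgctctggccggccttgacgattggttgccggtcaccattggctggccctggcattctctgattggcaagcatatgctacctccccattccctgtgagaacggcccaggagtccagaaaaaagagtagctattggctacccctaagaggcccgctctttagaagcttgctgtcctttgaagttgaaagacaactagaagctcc
Uqcrh promoter: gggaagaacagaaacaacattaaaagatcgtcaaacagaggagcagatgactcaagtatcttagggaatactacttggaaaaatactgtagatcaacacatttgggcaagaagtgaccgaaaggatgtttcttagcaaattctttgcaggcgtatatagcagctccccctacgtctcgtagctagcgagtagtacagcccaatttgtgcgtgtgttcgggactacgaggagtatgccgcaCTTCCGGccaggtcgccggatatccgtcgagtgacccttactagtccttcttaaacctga
Cox7a1 promoter: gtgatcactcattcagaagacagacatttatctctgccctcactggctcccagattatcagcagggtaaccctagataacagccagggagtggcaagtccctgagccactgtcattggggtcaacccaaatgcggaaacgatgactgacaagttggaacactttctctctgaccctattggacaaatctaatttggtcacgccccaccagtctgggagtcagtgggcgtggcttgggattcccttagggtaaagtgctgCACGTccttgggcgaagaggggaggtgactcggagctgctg
Ndufa4 promoter: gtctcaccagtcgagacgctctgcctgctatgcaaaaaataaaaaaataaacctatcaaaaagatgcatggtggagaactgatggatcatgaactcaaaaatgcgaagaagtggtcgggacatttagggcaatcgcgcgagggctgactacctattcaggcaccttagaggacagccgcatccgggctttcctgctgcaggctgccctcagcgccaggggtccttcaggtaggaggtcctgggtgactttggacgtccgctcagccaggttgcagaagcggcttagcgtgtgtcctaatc

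Genes that build and feed the chain were taken from lists chosen with results of these data known. Their counts stand beside shares over all tested genes of 9.71% higher and 7.13% lower in non-degradable PEG, with 7.42% and 4.79% in degradable PEG. Of 15 complex I assembly factors, 1 fell in non-degradable PEG, with 2 in degradable PEG: Ndufaf2, which acts late in assembly, went from 27.8 ± 0.595 CPM (SD, n = 3) in Matrigel to 20.7 ± 0.359 and 22.0 ± 1.88 CPM, at log2 fold changes of -0.42 and -0.34 (edgeR adjusted p = 0.00508 and 0.0197), and Tmem186 was at -0.31 in degradable PEG (0.0282). Of 35 tested assembly factors of complexes II to V, 2 rose and 1 fell in non-degradable PEG, and 3 rose in degradable PEG. Higd1a, a hypoxia-induced factor that binds complex IV, rose by 0.70 and 0.52, and Coa4 by 0.34 and 0.35. Sdhaf1, a complex II assembly factor, rose by 0.54 in degradable PEG, and Sdhaf2 fell by 0.22 in non-degradable PEG. The medians of the lists were -0.04 and 0.02 for complex I and 0.01 and 0.01 for the others.

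Of 32 genes for the DNA and RNA of mitochondria, 1 rose in non-degradable PEG, the termination factor family member Mterf2 (0.56), and 2 in degradable PEG, Mterf2 (0.51) and the polymerase accessory subunit Polg2 (0.45), with medians of -0.05 and 0.02. Of 77 mitochondrial ribosomal proteins, 0 rose and 4 fell in non-degradable PEG, led by Mrpl11 (-0.30) and Mrpl13 (-0.30), and 1 fell in degradable PEG, Mrpl49 (-0.32). Their medians were -0.10 and -0.02. Of 26 import and membrane genes, 2 fell in non-degradable PEG, the chaperonin Hspe1 (-0.27) and the channel Vdac3 (-0.26), and 0 passed in degradable PEG by edgeR (0 also at an unadjusted p under 0.05). Of 11 other respiratory chain genes, 0 passed in non-degradable PEG (2 at an unadjusted p under 0.05 by edgeR), and the electron transfer flavoprotein genes Etfa (-0.28) and Etfdh (-0.22) fell in degradable PEG.

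Of 15 nuclear regulators, 5 rose in non-degradable PEG, with 2 in degradable PEG, and 0 fell, next to 9.71% and 7.42% of all tested genes higher. Their medians were 0.31 and 0.0092, and 7 of the 15 had values below 0 in each gel, down to -0.34 for Esrrg in the first and -0.58 for Ppara in the second. Myc, a growth regulator, went from 126 ± 6.51 CPM in Matrigel to 271 ± 51.9 and 336 ± 56.5 CPM (SD, n = 3), at log2 fold changes of 1.101 and 1.41. Pparg, a lipid-sensing nuclear receptor, rose by 0.89 and 0.46. Of 12 tested HIF targets that act on mitochondria, 10 rose and 1 fell in non-degradable PEG, and 7 rose and 1 fell in degradable PEG, with medians of 0.75 and 0.48, next to the same shares. Higd1a stands in this list and in that of assembly factors. Ankrd37 went from 1.51 ± 0.430 CPM to 20.99 ± 2.63 and 13.9 ± 2.64 CPM, and Bnip3, which marks mitochondria for removal, from 11.7 ± 1.90 to 125 ± 40.2 and 67.9 ± 30.2 CPM. Ier3 rose by 1.97 and 3.04, and Fundc1, a receptor for removal of mitochondria, fell by 0.45 and 0.41. In the citric acid cycle list of 21 genes, Cs, citrate synthase, rose by 0.21 in non-degradable PEG and Pdha1, of pyruvate dehydrogenase, fell by 0.23 in degradable PEG. Of 8 genes of uncoupling and reactive oxygen, Prdx5 rose by 0.32 in non-degradable PEG and 0 passed in degradable PEG (1 at an unadjusted p under 0.05 by edgeR). Each of these values has the same Matrigel libraries on its other side.

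Over the 9 libraries, the genes outside the chosen set whose log2 CPM followed the mean of the nuclear members most closely were Fbxo31 (Pearson r = 0.985), Mpnd (0.966), Rp9 (0.959), Fh1, the fumarase gene (0.958), and Eif3i (0.950). These values describe 9 libraries from 3 matrices that differ in depth and share their scaling, and they carry no p.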

How the data were processed

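The input was the authors' deposited counts, 1 table of whole-number counts per gene for each of 9 libraries. Per the submitters' processing notes, reads were trimmed with cutadapt 1.3, aligned to GRCm38 with STAR 2.4.2a and counted with HTSeq 0.6.1. The sources give neither the annotation release nor the strand setting. Per the labels' protocols, RNA came from the RNeasy Micro kit and a stranded TruSeq mRNA kit made the libraries. The 5 tally rows were removed, and GENCODE M21 named 46005 of 46517 genes. Reads with several alignments were not assigned.

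One edgeR 4.0.16 quasi-likelihood fit (R 4.3.3, TMM scaling, filterByExpr, 14870 genes tested) of all libraries gave 3 contrasts and a test over all matrices. P-values were Benjamini-Hochberg adjusted over all tested genes, and an adjusted p under 0.05 counted as a call. SE was obtained by dividing the size of the log2 fold change by the root of F. The script was tested on simulated counts. Alternatives covered DESeq2 1.42.0, other scalings and filters, and each library left out.

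Members, lists and tests were chosen with earlier results of these data known. Symbols annotated as processed pseudogenes were left out beside those marked -ps. Named genes were the mitochondrial genes, the strongest called nuclear members, an isoform panel, complex II, the 3 most abundant nuclear members per kb, the strongest called genes of each related list and the 5 closest profiles. Same-numbered libraries of Matrigel and non-degradable PEG deviated together in 3 of 3 pairs (r = 0.176 to 0.331). Fits with these numbers as a block were run as alternatives, and the main fit was unpaired.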

Additional observations from a re-analysis of the deposited data

How the results depend on the processing

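The medians of the nuclear members against Matrigel, and that of the mitochondrial members in non-degradable PEG, kept their sign in every alternative run. Counts of calls did not keep their size. For nuclear members in non-degradable PEG (5 called), upper-quartile scaling gave 3, DESeq2 8, a mean of at least 10 CPM 3, the compared groups only 15, the replicate block 9, the replicate block in the compared groups only, chosen after seeing the data, 31, and leaving out 1 library 0 to 14. In degradable PEG (3), upper-quartile scaling and the compared groups only gave 0, the replicate block 5 and leaving out 1 library 0 to 11. Over all 3 matrices (6), upper-quartile scaling gave 2, at least 10 CPM 1 and leaving out 1 library 0 to 12. For mitochondrial members in non-degradable PEG (1), DESeq2 gave 2, no filter 3, the compared groups only 2, the replicate block 5, with or without the third matrix, and leaving out 1 library 0 to 3. In degradable PEG (0), the replicate block gave 1 and leaving out 1 library 0 to 1. Over all matrices (1), no filter gave 2, at least 10 CPM 0, the replicate block 4 and leaving out 1 library 0 to 2. The share of all tested genes called moved as well. In non-degradable PEG it was 9.71% higher and 7.13% lower in the main fit, and 14.1% and 12% with the replicate block. With the block in the compared groups only it was 17.6% and 17.3%. Shares for the other alternatives are not given, so these counts alone do not show a shift particular to the members. The cause of these shifts was not tested.

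Leaving out 1 library also turned the sign of small differences. The nuclear median between the PEG gels (-0.012) ran from -0.055 to 0.042, and the nuclear share of reads between them (-0.03 on the log2 scale) from -0.073 to 0.034. The mitochondrial median ran from -0.045 to 0.25 in degradable PEG and from 0.088 to 0.31 between the gels. In degradable PEG, mt-Nd1 ran from -0.075 to 0.22, mt-Nd2 from -0.13 to 0.19 and mt-Nd5 from -0.045 to 0.34. Matrigel and degradable PEG had 2 of 3 same-numbered pairs over an r of 0.1 (0.0712 to 0.258), as did the PEG gels (0.0197 to 0.511), and 17 of 18 comparisons of a library correlated best with its own number. The labels give those samples only a shared number, and what it marks is not stated. At 210 counts in all, Cox7a1 is limited by depth.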
